A study of Mus musculus with 18 samples.

Results

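The medial ganglionic eminence (MGE) of Chd2 heterozygous mouse embryos was set against the cortex of Chd2 heterozygous embryos, with 3 libraries of each tissue out of the 18 libraries of the series. The 6 libraries were taken by their tissue and genotype labels, and genes on autosomes were compared. The count table held 22813 autosomal lines, of which 14636 passed a filter on low counts and were tested. The groups were MGE HET (genotype Chd2 het, C57BL/6, dissected at E13.5), cortex HET (the same genotype, strain and age), MGE WT and cortex WT (wild type, the same strain and age). Both HET groups carry a mutated copy of Chd2 next to an intact one, and the labels do not name the allele or say how many embryos went into a library. Total RNA from dissected tissue was poly(A)-selected and sequenced, so each library is bulk tissue with all its cell types. The comparison addresses whether genes of ventral and dorsal identity stay apart between the tissues when 1 copy of Chd2 is mutated.

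The MGE is a ventral swelling of the embryonic forebrain. Under Sonic hedgehog signalling its progenitors express the homeobox gene Nkx2-1 and give rise to cortical interneurons that use GABA, to cholinergic neurons and to early oligodendrocyte precursors. The cortex forms dorsally, under Wnt and BMP signals from its midline, from progenitors that express Emx1, Emx2 and Pax6, and through proneural genes such as Neurog2 it makes glutamatergic projection neurons. Chd2 encodes a chromatin remodeller of the CHD family that uses ATP to move nucleosomes.

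Promoters of 3 members are shown, one for the ventral side (Nkx2-1), one for the dorsal progenitors (Emx1) and one for the projection neuron genes (Neurod2), since it holds the E-box searched for. Each is the 300-base stretch around the gene start in RefSeq, build GRCm38.p6, printed 5′ to 3′ on the strand of the gene. They lie at chr12:56536859-56537158 on the minus strand, chr6:85187681-85187980 on the plus strand and chr11:98329596-98329895 on the minus strand. The Emx1 start given below, from GENCODE M21, lies upstream of its window, so RefSeq and GENCODE differ on that start. Capitals mark CAGATG, the form of E-box that proneural factors of the Neurog and Neurod family prefer.
Nkx2-1: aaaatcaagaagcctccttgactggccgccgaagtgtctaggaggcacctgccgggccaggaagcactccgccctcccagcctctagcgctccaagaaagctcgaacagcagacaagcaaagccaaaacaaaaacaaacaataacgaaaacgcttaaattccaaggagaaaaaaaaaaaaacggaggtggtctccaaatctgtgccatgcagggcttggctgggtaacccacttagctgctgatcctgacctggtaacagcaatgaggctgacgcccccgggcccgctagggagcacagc
Emx1: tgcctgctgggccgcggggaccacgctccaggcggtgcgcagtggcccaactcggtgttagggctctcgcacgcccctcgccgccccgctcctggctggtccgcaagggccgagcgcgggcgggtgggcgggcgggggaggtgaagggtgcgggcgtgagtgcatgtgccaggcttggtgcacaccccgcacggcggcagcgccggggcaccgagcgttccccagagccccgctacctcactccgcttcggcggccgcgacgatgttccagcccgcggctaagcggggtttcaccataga
Neurod2: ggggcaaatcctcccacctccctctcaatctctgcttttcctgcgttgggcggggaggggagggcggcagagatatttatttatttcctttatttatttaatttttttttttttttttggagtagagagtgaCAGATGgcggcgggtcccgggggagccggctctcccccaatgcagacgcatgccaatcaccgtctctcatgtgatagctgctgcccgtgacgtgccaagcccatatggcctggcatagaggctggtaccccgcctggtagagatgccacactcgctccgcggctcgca
On both strands, CAGATG was found in 10 of 27 promoters of projection neuron transcription factors (37.0%), which belonged to 6 of the 15 such genes that RefSeq's promoter table holds. It stood in 2 of 16 promoters of dorsal progenitor factors (12.5%), 1 of 13 of MGE factors (7.69%) and 0 of 12 of pan-subpallial regulators, against 17.2% of all 32851 promoters of that length. The homeodomain core TAATTA reads the same on both strands and shares no end letters with CAGATG that would let them overlap. TAATTA stood in 3 of 12 promoters of pan-subpallial regulators (25.0%) and 2 of 13 of MGE factors (15.4%). It also stood in 2 of 16 promoters of dorsal progenitor factors (12.5%) and 3 of 27 of projection neuron factors (11.1%), against 5.29% of all promoters. The Nkx2-1 and Emx1 stretches held neither motif, and Neurod2 held CAGATG at base 133. A match describes the letters in a window and is neither a bound site nor a cause, and these shares were not tested.

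Library totals ranged from 28575371 to 36682811 counts over the 6 HET libraries, and levels are given as TMM-normalised CPM, read counts scaled to library size. CPM is not corrected for transcript length, so levels are compared between libraries and not between genes. Wherever 3 values are given for a group they belong to its libraries 1, 2 and 3 in that order. Whether replicates came from separate animals is not stated, so p-values measure the spread between these libraries, which may be technical.

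Chd2 (chromosome 7, 73426638 to 73541830, minus strand, mm10) was measured at 141, 138 and 147 CPM in MGE HET and at 128, 127 and 128 CPM in cortex HET, against 157, 166 and 179 CPM in MGE WT and 147, 157 and 149 CPM in cortex WT. Every HET library lay below every WT library of its tissue. In one edgeR fit of the 12 libraries the difference did not pass the threshold after adjustment over all genes. This held in MGE (log2 fold change -0.23, SE 0.08, unadjusted p = 0.0106, adjusted p = 0.999) and in cortex (log2 fold change -0.24, SE 0.08, unadjusted p = 0.00817, adjusted p = 0.409). Between the HET tissues Chd2 did not pass either (log2 fold change 0.16, SE 0.10, adjusted p = 0.287). A gene on the same strand shares exons with Chd2, and reads of the pair may be split or shared.

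The HET cortex libraries were not alike. The root mean square difference of log2 CPM over all tested genes was 0.676 between cortex HET 1 and 3, 0.625 between cortex HET 2 and 3, and 0.481 between cortex HET 1 and 2. Cortex HET 3 lay 0.425, 0.526 and 0.454 from the 3 cortex WT libraries, so it was nearer to each of them than to either HET cortex library. Distances between MGE HET and cortex HET libraries were 1.17 to 1.28. Results are therefore also given without cortex HET 3, and with cortex HET 3 as the sole cortex library. Libraries also differed in sex markers. MGE HET 1 to 3 and cortex HET 1 and 3 had Y-linked reads, while cortex HET 2 and all 3 MGE WT libraries were high in Xist, so genotype and sex cannot be told apart in MGE. In cortex WT, library 1 had Y-linked reads and libraries 2 and 3 were high in Xist.

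Most ventral transcription factors were higher in MGE HET, most dorsal progenitor factors were lower, and projection neuron factors divided, as described below. Of 14636 tested autosomal genes, 1579 were higher in MGE HET than in cortex HET (10.8%) and 2142 were lower (14.6%) at an adjusted p under 0.05 (edgeR quasi-likelihood test, Benjamini-Hochberg adjustment over all 15247 tested genes), which makes 25.4% called in either direction. Changes of at least 2-fold were called for 752 genes in the higher direction (5.14%) and 1330 in the lower (9.09%). The total counts moved with single libraries. Without MGE HET 3 they were 829 higher and 1276 lower, without MGE HET 1 they were 987 and 1535, and none of the shared calls turned round. In bulk tissue, fewer cells of a type and less RNA per cell cannot be told apart, and this holds for every difference below.

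The marker genes of the 2 tissues were apart in every library. Nkx2-1 (chromosome 12, 56531958 to 56536908, minus strand), which specifies the MGE, was measured at 926, 929 and 971 CPM in MGE HET, against 0.391, 0.523 and 0.573 CPM in cortex HET. Its means were 942 ± 25.1 CPM in MGE HET and 0.496 ± 0.0940 CPM in cortex HET (SD, n = 3 each; log2 fold change 10.88, SE 0.20, adjusted p = 3.05e-08). No cortex HET library reached 1 CPM. Emx1 (chromosome 6, 85187438 to 85204462, plus strand), a homeobox gene of dorsal progenitors, was measured at 0.731, 0.400 and 0.0553 CPM in MGE HET, against 187, 164 and 123 CPM in cortex HET. Its means were 0.395 ± 0.338 CPM in MGE HET and 158 ± 32.6 CPM in cortex HET (SD, n = 3 each; log2 fold change -8.63, SE 0.48, adjusted p = 8.37e-06). MGE HET 3 had the lowest Emx1 of the MGE libraries and cortex HET 3 the lowest of the cortex libraries.

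Of 12 transcription factors of the MGE and its progeny, 11 were higher in MGE HET than in cortex HET and none was lower, with a median log2 fold change of 7.97, against -0.01 over all tested genes. Their summed level was 2271, 2043 and 2301 CPM in MGE HET, against 39.95, 48.2 and 68.4 CPM in cortex HET. Lhx6 (chromosome 2, 36081953 to 36105408), which acts downstream of Nkx2-1 in migrating interneurons, was measured at 560.4, 421 and 554 CPM in MGE HET, against 5.51, 4.18 and 20.6 CPM in cortex HET (log2 fold change 5.66, SE 0.60, adjusted p = 0.000257). The groups were far apart, and cortex HET 3 had several times the Lhx6 of the other HET cortex libraries. Lhx8 (chromosome 3, 154306294 to 154330659), needed for cholinergic neurons, was measured at 309, 245 and 282 CPM in MGE HET, against 0.0652, 0.139 and 0.172 CPM in cortex HET (log2 fold change 11.06, SE 0.25, adjusted p = 8.12e-08).

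Olig2, a factor of ventral progenitors and of the oligodendrocyte lineage, was measured at 219.5, 273 and 255 CPM in MGE HET, against 0.684, 0.697 and 1.75 CPM in cortex HET (log2 fold change 7.87, SE 0.35, adjusted p = 2.84e-06). Its partner in that lineage, Olig1, was measured at 17.3, 15.9 and 13.6 CPM in MGE HET, against 0.196, 0.139 and 0.401 CPM in cortex HET (log2 fold change 5.93, SE 0.33, adjusted p = 8.58e-06). Both were separated in every library and both were highest within the cortex in cortex HET 3. Isl1, a LIM-homeobox gene of cholinergic and striatal neurons, was measured at 59.4, 36 and 50.3 CPM in MGE HET and had no count in any cortex HET library. Set against a floor of 3 counts over the group, it was at least 1528-fold higher in MGE HET (adjusted p = 1.05e-05).

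Nkx6-2, a homeobox gene of MGE progenitors, was measured at 25.2, 21 and 24.6 CPM in MGE HET, against 0.0326, 0 and 0.201 CPM in cortex HET (log2 fold change 8.07, SE 0.49, adjusted p = 1.32e-05). The related homeobox genes Gbx1 and Gbx2 varied more within the MGE. Gbx1 was measured at 38.2, 9.05 and 33.4 CPM in MGE HET, against 0.0326, 0.139 and 0.115 CPM in cortex HET (log2 fold change 8.08, SE 0.73, adjusted p = 0.00011). Gbx2 was measured at 39.7, 13.6 and 27.5 CPM in MGE HET, against 0.0652, 0.139 and 0 CPM in cortex HET (log2 fold change 8.64, SE 0.66, adjusted p = 4.5e-05). MGE HET 2 was the lowest MGE library for both, yet remained above every cortex library. With cortex HET 3 as the sole cortex library Gbx1 no longer passed the threshold (log2 fold change 7.83).

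Otx2 and Maf differed less. Otx2, a forebrain homeobox gene that the choroid plexus also expresses, was measured at 31.6, 33.5 and 31.2 CPM in MGE HET, against 3.23, 10.1 and 7.31 CPM in cortex HET (log2 fold change 2.22, SE 0.34, adjusted p = 0.00194). Maf, which acts in MGE interneurons, was measured at 26.3, 28.9 and 37.1 CPM in MGE HET, against 12.2, 15.4 and 18.9 CPM in cortex HET (log2 fold change 0.99, SE 0.20, adjusted p = 0.0075). Its groups did not overlap, although their means were just under 2-fold apart.

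Regulators shared by the whole subpallium, which includes the lateral ganglionic eminence, also differed strongly, with 1 exception. Of 13 tested autosomal members, 12 were higher in MGE HET and 1, Sp8, was lower, with a median log2 fold change of 6.87. Dlx1 (chromosome 2, 71528113 to 71533981), a homeobox gene that directs GABAergic differentiation, was measured at 421, 486 and 515 CPM in MGE HET, against 2.25, 2.02 and 7.77 CPM in cortex HET (log2 fold change 6.87, SE 0.53, adjusted p = 4.54e-05). Its neighbour Dlx2 was measured at 515, 519 and 614 CPM in MGE HET, against 3.42, 2.23 and 6.96 CPM in cortex HET (log2 fold change 7.02, SE 0.41, adjusted p = 1.05e-05). Both were separated by far more than the spread of the libraries, and cortex HET 3 was the highest cortex library for both. Dlx1 shares exons with the antisense gene Dlx1as on the opposite strand, and the strand setting of the counting is not given in the sources used here, so reads of the pair cannot be told apart. Dlx1as itself was measured at 232, 276 and 256 CPM in MGE HET, against 4.24, 2.89 and 13.1 CPM in cortex HET (log2 fold change 5.23, SE 0.52, adjusted p = 0.000184).

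Dlx5 and Dlx6, which act after Dlx1 and Dlx2 in postmitotic cells, were likewise apart. Dlx5 was measured at 139, 123 and 160.2 CPM in MGE HET, against 1.04, 1.46 and 3.93 CPM in cortex HET (log2 fold change 6.01, SE 0.44, adjusted p = 3.34e-05). Dlx6 was measured at 45, 44.5 and 40.5 CPM in MGE HET, against 0.0652, 0.105 and 0.143 CPM in cortex HET (log2 fold change 8.63, SE 0.23, adjusted p = 1.92e-07). Dlx6os1, a long noncoding RNA of the same locus also known as Evf2, was measured at 589.7, 666 and 564 CPM in MGE HET, against 2.25, 1.92 and 8.25 CPM in cortex HET (log2 fold change 7.18, SE 0.57, adjusted p = 5.29e-05). Cortex HET 3 held the highest cortical level of all 3 genes of this locus. Sp9, a zinc finger factor of interneuron and striatal precursors, was measured at 323, 399 and 372 CPM in MGE HET, against 3.32, 1.99 and 8.17 CPM in cortex HET (log2 fold change 6.33, SE 0.48, adjusted p = 4.5e-05).

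The homeobox genes Gsx1 and Gsx2 mark ventral progenitors and were all but absent from the HET cortex. Gsx2 was measured at 38.8, 48.9 and 45.4 CPM in MGE HET and had no count in cortex HET, so that it was at least 1393-fold higher in MGE HET against a floor of 3 counts over the group (adjusted p = 3.72e-06). Gsx1 was measured at 18.3, 18.8 and 19.5 CPM in MGE HET, against 0, 0.0349 and 0 CPM in cortex HET, a ratio of 1779 (95% counting interval 319 to 70308) on 1 cortical count (adjusted p = 1.73e-06). Vax1, a ventral forebrain homeobox gene, was measured at 52.5, 54.6 and 62.4 CPM in MGE HET, against 0, 0 and 0.229 CPM in cortex HET, where all its counts came from cortex HET 3 (log2 fold change 9.33, SE 0.52, adjusted p = 7.66e-06). Six3, needed for forebrain formation, was measured at 41, 27.1 and 40.9 CPM in MGE HET, against 0.0652, 0.523 and 0.745 CPM in cortex HET (log2 fold change 6.32, SE 0.49, adjusted p = 4.85e-05).

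Sp8 was the exception. Sp8, which patterns the cortical primordium and is also used in interneurons of the lateral and caudal eminences, was measured at 6.69, 6.36 and 6.53 CPM in MGE HET, against 45.4, 36.1 and 12.7 CPM in cortex HET (log2 fold change -2.26, SE 0.40, adjusted p = 0.00391). Sp8 was lower in every MGE HET library, and cortex HET 3 lay nearest to them. Without cortex HET 3 its log2 fold change was -2.64, and with cortex HET 3 as the sole cortex library -0.96.

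Dorsal progenitor transcription factors were lower in MGE HET for 14 of 15 members and higher for none, with a median log2 fold change of -7.85. Their summed level was 292, 303 and 343 CPM in MGE HET, against 3367, 3240.3 and 2296 CPM in cortex HET. Emx2, which with Emx1 sets cortical growth and area, was measured at 6.46, 5.68 and 6.25 CPM in MGE HET, against 127, 132 and 65.8 CPM in cortex HET (log2 fold change -4.14, SE 0.28, adjusted p = 2.16e-05). Pax6 (chromosome 2, 105668900 to 105697364), a paired homeobox gene that holds the border between dorsal and ventral territory, was measured at 4.92, 1.14 and 2.68 CPM in MGE HET, against 196, 165 and 143 CPM in cortex HET (log2 fold change -5.85, SE 0.45, adjusted p = 4.52e-05). Pax6 was highest among the MGE libraries in MGE HET 1 and remained far below every cortex library there.

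Proneural and intermediate progenitor genes were nearly absent from the MGE. Neurog2 (chromosome 3, 127633135 to 127635631), the proneural gene of cortical progenitors, was measured at 0.197, 0.457 and 0.304 CPM in MGE HET, against 497, 429 and 400.3 CPM in cortex HET (log2 fold change -10.42, SE 0.26, adjusted p = 1.56e-07). Neurog1 was measured at 0, 0.0285 and 0 CPM in MGE HET, against 33.1, 37.5 and 19.9 CPM in cortex HET, so that cortex HET exceeded MGE HET by a ratio of 3159 (95% counting interval 566 to 124810) on 1 count in the MGE (adjusted p = 3.72e-06). Eomes (chromosome 9, 118478212 to 118486132), the T-box factor of intermediate progenitors, was measured at 0.281, 0.257 and 0.166 CPM in MGE HET, against 348, 343 and 338 CPM in cortex HET (log2 fold change -10.49, SE 0.20, adjusted p = 3.05e-08). The 3 cortex HET libraries were nearly equal for Eomes, cortex HET 3 included. Fezf2, which specifies subcerebral projection neurons, was measured at 0.450, 0.171 and 0.138 CPM in MGE HET, against 192, 209 and 240.4 CPM in cortex HET (log2 fold change -9.70, SE 0.32, adjusted p = 3.57e-07).

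The DMRT family and Tfap2c, regulators of cortical progenitor growth, were nearly absent from the MGE. Dmrta2 was measured at 1.43, 0.913 and 0.747 CPM in MGE HET, against 300.01, 268 and 147 CPM in cortex HET (log2 fold change -7.85, SE 0.38, adjusted p = 3.72e-06). Dmrt3 was measured at 0.112, 0 and 0.0830 CPM in MGE HET, against 40.1, 51.2 and 21.9 CPM in cortex HET (log2 fold change -9.09, SE 0.56, adjusted p = 1.35e-05). Dmrta1 was measured at 0.112, 0.114 and 0.0553 CPM in MGE HET, against 29.2, 20.005 and 6.68 CPM in cortex HET (log2 fold change -7.58, SE 0.69, adjusted p = 0.00011). In the cortex all 3 were lowest in cortex HET 3. Tfap2c was measured at 0.141, 0.428 and 0.111 CPM in MGE HET, against 90.7, 75.3 and 58.3 CPM in cortex HET (log2 fold change -8.35, SE 0.38, adjusted p = 3.37e-06).

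Lhx9, a relative of Lhx2, was measured at 0.787, 0.0571 and 0.221 CPM in MGE HET, against 44.9, 55.4 and 23.8 CPM in cortex HET (log2 fold change -6.85, SE 0.62, adjusted p = 0.00011). Members that the MGE also expresses differed less. Lhx2, the LIM-homeobox selector of cortical identity, was measured at 110.1, 110.2 and 132 CPM in MGE HET, against 912, 936 and 514 CPM in cortex HET (log2 fold change -2.74, SE 0.24, adjusted p = 8.67e-05). Gli3, which represses hedgehog targets in the dorsal forebrain, was measured at 64.1, 57 and 71.9 CPM in MGE HET, against 181, 179 and 95.4 CPM in cortex HET (log2 fold change -1.24, SE 0.24, adjusted p = 0.00568). For both, cortex HET 3 lay well below cortex HET 1 and 2 and nearest to the MGE. Nr2e1, the nuclear receptor Tlx of progenitors on both sides, was measured at 102, 127 and 128 CPM in MGE HET, against 189.5, 177 and 98.9 CPM in cortex HET (log2 fold change -0.38, SE 0.23, adjusted p = 0.254). Its groups overlapped through cortex HET 3, and without that library Nr2e1 was lower in MGE HET and passed the threshold (log2 fold change -0.62).

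Transcription factors of projection neurons divided. Of 20 members, 12 were lower in MGE HET, 5 were higher and 3 did not pass, with a median log2 fold change of -2.03. The bHLH genes of newborn glutamatergic neurons were at the low end. Neurod2 (chromosome 11, 98325415 to 98329648) was measured at 0.169, 0.371 and 0.221 CPM in MGE HET, against 273, 212 and 297 CPM in cortex HET (log2 fold change -9.99, SE 0.28, adjusted p = 2.22e-07). Neurod1 was measured at 0.0843, 0.114 and 0.0830 CPM in MGE HET, against 74.3, 83.1 and 70.2 CPM in cortex HET (log2 fold change -9.60, SE 0.21, adjusted p = 6.26e-08). Neurod6 was measured at 0.703, 0.713 and 0.526 CPM in MGE HET, against 525, 484 and 1172 CPM in cortex HET (log2 fold change -10.13, SE 0.48, adjusted p = 3.72e-06). No MGE HET library reached 1 CPM for any of these 3 genes, and cortex HET 3 had over 2 times the Neurod6 of each other HET cortex library.

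Bhlhe22, which shapes cortical areas, was measured at 0.731, 0.342 and 0.360 CPM in MGE HET, against 169, 163 and 188 CPM in cortex HET (log2 fold change -8.49, SE 0.26, adjusted p = 3.22e-07). Tbr1, the T-box factor of deep-layer neurons, was measured at 6.72, 0.771 and 0.415 CPM in MGE HET, against 217, 245 and 275 CPM in cortex HET (log2 fold change -6.54, SE 0.94, adjusted p = 0.0025). MGE HET 1 had far more Tbr1 than MGE HET 2 and 3, and it was also the MGE library highest in Pax6 and Emx1. With cortex HET 3 as the sole cortex library Tbr1 no longer passed (log2 fold change -6.70).

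The nuclear factor I genes, used in glia and deep-layer neurons, were lower in MGE HET but plainly expressed there. Nfib was measured at 109.7, 111 and 109 CPM in MGE HET, against 764, 731 and 874 CPM in cortex HET (log2 fold change -2.85, SE 0.13, adjusted p = 2.99e-06). Nfia was measured at 48.7, 47.3 and 46.7 CPM in MGE HET, against 221, 211 and 193 CPM in cortex HET (log2 fold change -2.13, SE 0.11, adjusted p = 6.19e-06). Nfix was measured at 49.8, 50.03 and 55.7 CPM in MGE HET, against 637, 565 and 540.2 CPM in cortex HET (log2 fold change -3.49, SE 0.13, adjusted p = 1.19e-06). The 3 genes were apart in every library. Other called members were Zbtb18, a repressor needed for cortical neuron maturation, at -1.92, Mef2c, an activity-dependent factor, at -1.93, and Zfpm2, a cofactor of corticothalamic neurons, at -3.09, all log2 fold changes with adjusted p of 0.000463 or less.

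Projection neuron factors that were higher in MGE HET were Pou3f1, Pou3f2, Rorb, Cux2 and Cux1. Pou3f1, a POU factor, was measured at 97, 53.2 and 86.1 CPM in MGE HET, against 13.6, 7.88 and 16 CPM in cortex HET (log2 fold change 2.66, SE 0.30, adjusted p = 0.000365). Pou3f2, its relative in upper-layer neurons, was measured at 190.1, 159.8 and 179.9 CPM in MGE HET, against 51.4, 33 and 47.4 CPM in cortex HET (log2 fold change 2.01, SE 0.18, adjusted p = 9.59e-05). Rorb, a nuclear receptor of layer IV, was measured at 11.7, 12 and 12.4 CPM in MGE HET, against 3.23, 1.95 and 5.65 CPM in cortex HET (log2 fold change 1.73, SE 0.34, adjusted p = 0.00634). None of the 3 overlapped between the tissues. Cux2 was measured at 69.4, 56.1 and 85.7 CPM in MGE HET, against 22.8, 20.3 and 28.7 CPM in cortex HET (log2 fold change 1.56, SE 0.19, adjusted p = 0.000569). Cux1 was measured at 270.4, 186 and 231 CPM in MGE HET, against 144, 143 and 119.99 CPM in cortex HET (log2 fold change 0.76, SE 0.16, adjusted p = 0.00901).

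Those that did not pass were Sox5 (log2 fold change -0.41, SE 0.17, adjusted p = 0.114), Bcl11a (log2 fold change -0.38, SE 0.21, adjusted p = 0.215) and Tle4 (log2 fold change -0.46, SE 0.23, adjusted p = 0.177). Sox5 and Bcl11a were lower in every MGE HET library than in every cortex HET library, and Tle4 overlapped. Sox5 passed with cortex HET 3 as the sole cortex library (log2 fold change -0.76), and Tle4 passed without MGE HET 1 (log2 fold change -0.76). Over the 60 tested factors of the 4 lists, 28 had HET libraries that did not overlap in the higher direction and 29 in the lower, against 21.6% and 23.8% of all tested genes. Because they share exons with another gene, values are uncertain for Emx2, Neurod1, Nfia, Nfix, Nkx6-2, Otx2, Six3, Sp9 and Dlx1 with Dlx1as.

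**Figure D1:**
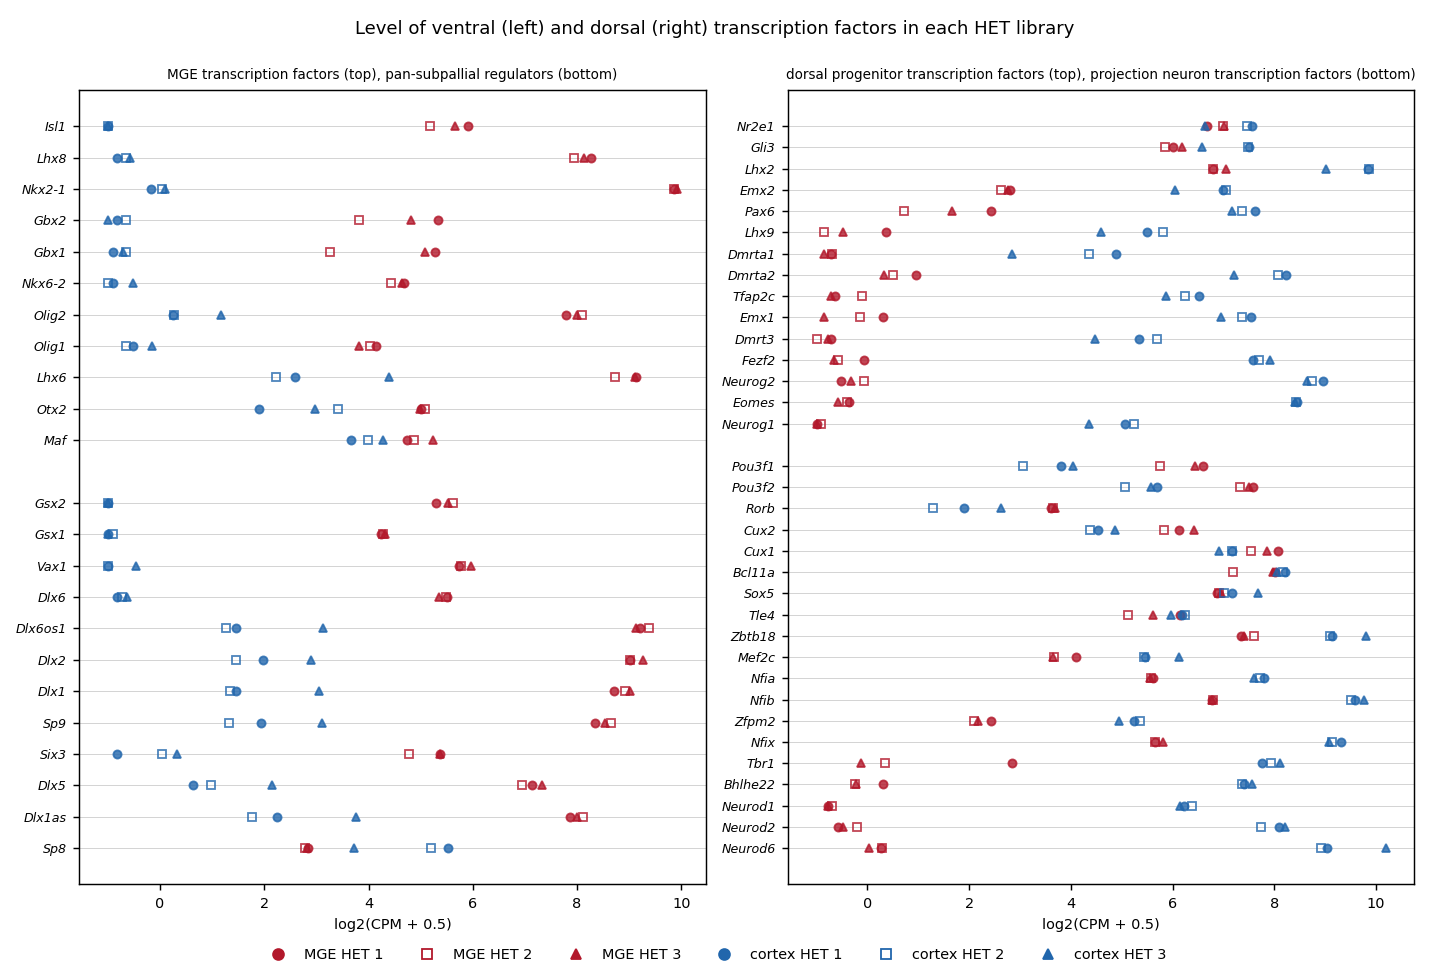
Level of ventral transcription factors (left panel) and dorsal ones (right panel) in each HET library, as log2 of CPM plus 0.5, with MGE HET in red, cortex HET in blue, and circles, open squares and triangles for libraries 1, 2 and 3. The tissues are apart for Nkx2-1, Dlx, Emx1 and Neurod genes, they meet at Nr2e1, and the triangle of cortex HET 3 is the highest cortex mark for Lhx6 and Dlx1 and the lowest for Emx1 and Emx2.

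The tissue difference was set beside the same difference in WT embryos, which uses other libraries. In WT, 7060 of the tested autosomal genes were called (48.2%), 3443 of them higher in MGE WT (23.5%) and 3617 lower (24.7%). Of the 3721 HET calls, 3262 were also called in WT (87.7%), and 3261 of those had the same direction. Conversely, 46.2% of WT calls were also called in HET. Across the 14636 genes the HET and WT log2 fold changes had a Pearson r of 0.919, given as a description since genes are not independent replicates. The median absolute log2 fold change was 0.34 in HET and 0.36 in WT.

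For the identity lists, the median log2 fold change was 7.97 in HET and 7.20 in WT for MGE factors, 6.87 in HET and 6.06 in WT for pan-subpallial regulators, -7.85 in HET and -7.26 in WT for dorsal progenitor factors, and -2.03 in HET and -2.29 in WT for projection neuron factors. The absolute change was larger in HET for 9 of 12, 12 of 13, 14 of 15 and 13 of 20 members of these lists, in that order, and for 48.5% of all tested genes. No member of the 4 lists had opposite signs in the 2 genotypes. The test of the difference itself, the HET tissue contrast minus the WT tissue contrast in one fit of the 12 libraries, called 0 genes with edgeR (0%) and 596 at an unadjusted p under 0.05 (4.07%). limma-voom also called 0 and DESeq2 called 6. With edgeR, 2 of 12 MGE factors and 0 of 13 pan-subpallial regulators had an unadjusted p under 0.05. So had 6 of 15 dorsal progenitor factors and 8 of 20 projection neuron factors, against 4.07% of all tested genes. These shares were not tested, and the lists were chosen with earlier results of these data known.

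The lowest p-values of that test below zero were those of Eomes and Neurog2. Eomes was measured at 0.281, 0.257 and 0.166 CPM in MGE HET, against 0.880, 1.27 and 2.19 CPM in MGE WT, while it was measured at 348, 343 and 338 CPM in cortex HET, against 348, 418 and 345 CPM in cortex WT. Its difference of log2 fold changes was -2.47 (SE 0.40, unadjusted p = 3.24e-05), with an adjusted p of 0.494 that did not pass. Neurog2 was measured at 0.197, 0.457 and 0.304 CPM in MGE HET, against 0.880, 1.57 and 1.82 CPM in MGE WT. Its difference was -1.96 (SE 0.37, unadjusted p = 0.000134, adjusted p = 0.558). Neurod2, measured at 0.169, 0.371 and 0.221 CPM in MGE HET, against 0.518, 1.2 and 2.75 CPM in MGE WT, had a difference of -2.19 (SE 0.66, unadjusted p = 0.00625, adjusted p = 0.916). Eomes and Neurog2 were picked by their p-values in this test, so their lower levels in MGE HET are no further evidence. No MGE library exceeded 3 CPM for any of these 3 genes. Emx1 overlapped between the genotypes in the MGE, with 0.731, 0.400 and 0.0553 CPM in MGE HET, against 0.388, 0.567 and 0.663 CPM in MGE WT.

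On the ventral side Nkx2-1 was measured at 0.391, 0.523 and 0.573 CPM in cortex HET, against 0.682, 0.493 and 1.59 CPM in cortex WT, and its difference of log2 fold changes was 0.99 (SE 0.40, unadjusted p = 0.0281, adjusted p = 0.916). Lhx6 was measured at 5.51, 4.18 and 20.6 CPM in cortex HET, against 17.8, 14.3 and 22 CPM in cortex WT (difference 0.95, SE 0.61, adjusted p = 0.916). Cortex HET 1 and 2 were below all cortex WT libraries for Lhx6 and cortex HET 3 lay among them. DESeq2 called Eomes, Neurog2, Lpl, Aldoc, Slc30a10 and Chrna7, and edgeR called Eomes, Neurog2 and Slc30a10 when MGE WT 1 was left out. In MGE, genotype and sex markers split the libraries the same way and cannot be told apart in this test.

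**Figure D2:**
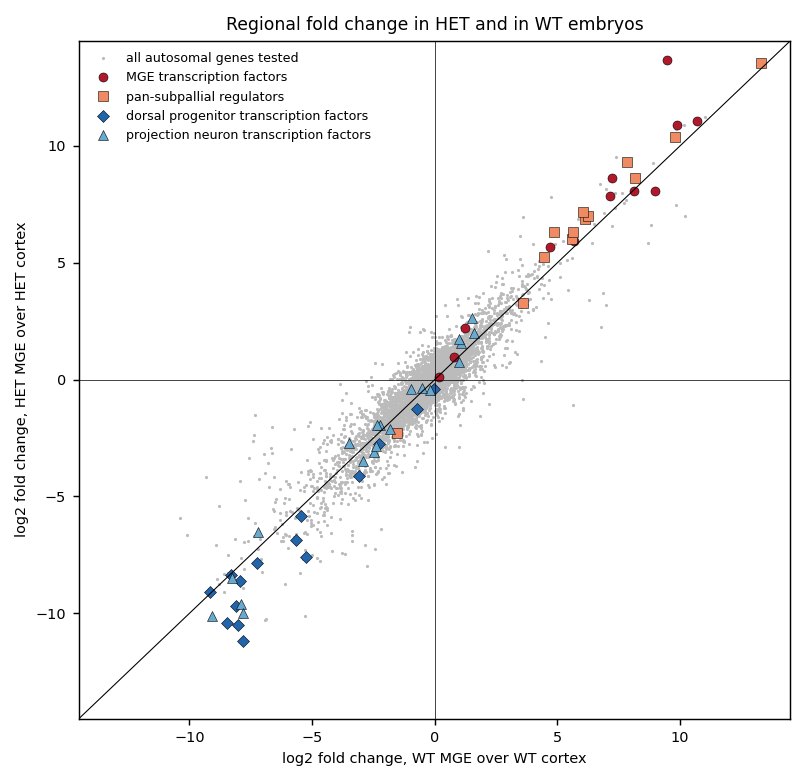
Log2 fold change of MGE over cortex in HET (vertical axis) against the same in WT (horizontal axis) for each tested autosomal gene in grey, with the 4 transcription factor lists coloured and a diagonal of equality. Members of each list lie on the same side of zero in both genotypes; the fitted values of Isl1 and Gsx2 rest on cortex libraries without counts and are no bounds.

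Within the cortex, cortex HET 3 stood apart in a shared direction. The deviation of log2 (CPM plus 0.5) from the mean of the 6 cortex libraries, as a median over the list, was -0.55, -0.37 and 0.17 in cortex HET 1, 2 and 3 for pan-subpallial regulators, against 0.37, -0.04 and 0.51 in cortex WT. For genes of GABA synthesis and transport it was -0.63, -0.71 and 0.41 in cortex HET, against 0.40, 0.10 and 0.54 in cortex WT. Cortex HET 3 thus lay among the WT libraries and the other HET libraries lay below them. Of the 6 GABA genes, 6 were highest among the HET cortex libraries in cortex HET 3, as were 8 of 12 MGE factors and 9 of 13 pan-subpallial regulators, against 43.8% of all tested genes.

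Neuronal and proliferation genes moved with this. Pan-neuronal genes deviated by -0.47, -0.43 and 0.31 in cortex HET, against 0.09, 0.14 and 0.31 in cortex WT. Projection neuron effector genes deviated by -0.37, -0.61 and 0.34 in cortex HET, against 0.06, 0.18 and 0.45 in cortex WT. Dorsal progenitor factors went the other way, at 0.44, 0.41 and -0.31 in cortex HET, against -0.24, 0.10 and -0.20 in cortex WT. Cell cycle genes deviated by 0.38, 0.40 and -0.27 in cortex HET, against -0.25, -0.08 and -0.19 in cortex WT. All 30 cell cycle genes were lowest among the HET cortex libraries in cortex HET 3, against 6052 of all 14636 tested genes. All 30 were above every cortex WT library in both cortex HET 1 and 2, against 28.1% of all tested genes. What set cortex HET 3 apart was not tested.

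Identity calls were also made with either set of cortex libraries. Without cortex HET 3, 11 of 12 MGE factors were higher (median log2 fold change 8.13), 12 of 13 pan-subpallial regulators were higher (7.60), 15 of 15 dorsal progenitor factors were lower (-8.10), and 12 projection neuron factors were lower and 5 higher (-1.92). With cortex HET 3 as the sole cortex library, 10 of 12 MGE factors were higher (7.002), 12 of 13 pan-subpallial regulators were higher (5.93), 14 of 15 dorsal progenitor factors were lower (-7.15), and 12 projection neuron factors were lower and 5 higher (-2.34), on the assumption that this lone library varies like the others. With that library alone the absolute medians were below those of WT for the first 3 lists and above for projection neuron factors, the reverse of their order over all libraries. Sizes moved more than calls. Lhx6 had a log2 fold change of 6.72 without cortex HET 3 and 4.64 with it as the sole cortex library, and Dlx1 had 7.79 and 5.93. Nkx2-1 moved little, to 10.67 with cortex HET 3 as the sole cortex library, against 10.88 over all libraries.

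The comparison with WT moved most with this library. Cortex HET 3 was singled out for its nearness to cortex WT, so leaving it out favours calls in a HET-minus-WT test. Calls made without it are no independent evidence of a genotype effect. Without cortex HET 3 the difference between genotypes called 439 of 14636 tested autosomal genes, 226 above zero and 213 below, against 0 with it (edgeR). It again called 0, and 770 at an unadjusted p under 0.05, when cortex HET 1 and 2 were left out instead. The members called without cortex HET 3 were Lhx6 and Olig2 among MGE factors and Dlx1, Dlx1as, Dlx6os1 and Vax1 among pan-subpallial regulators, all above zero. Dmrta1, Neurog2 and Eomes among dorsal progenitor factors were below zero, and Sox5 and Zbtb18 among projection neuron factors were above it.

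**Figure D3:**
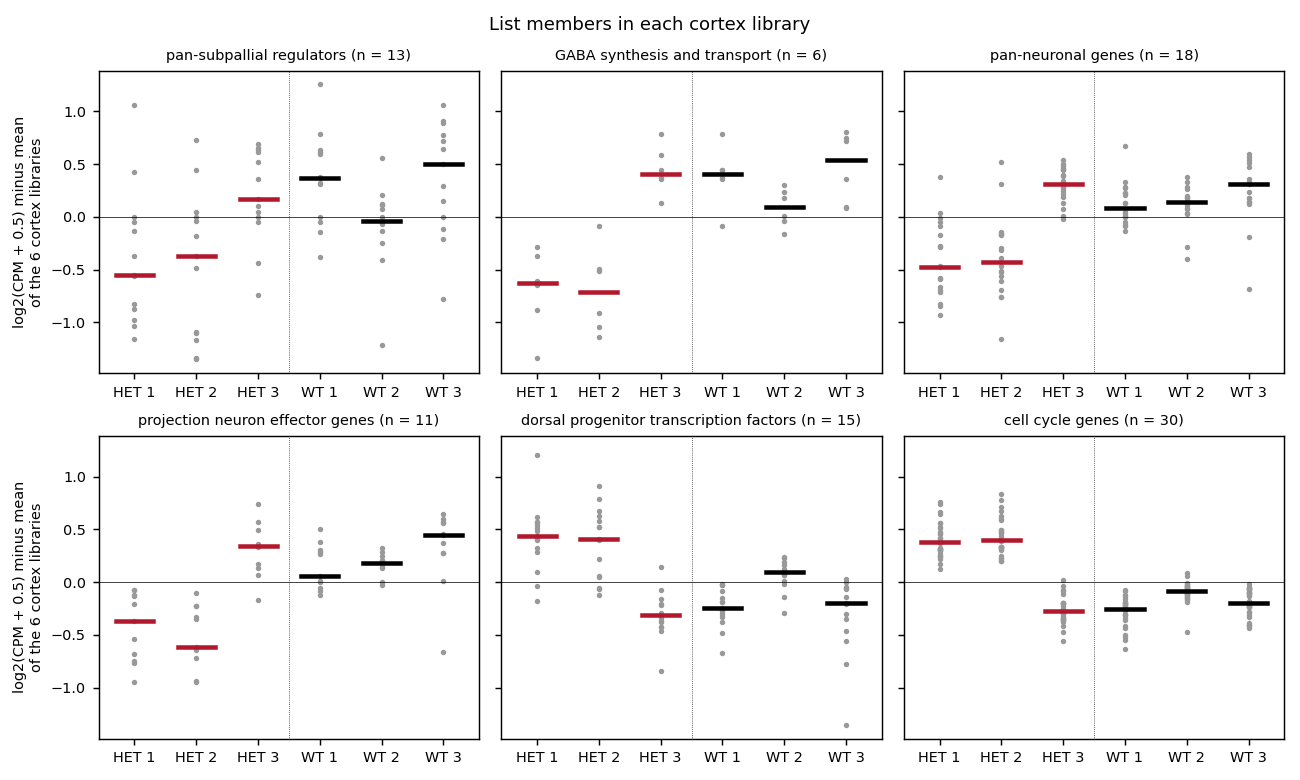
Deviation of each gene's log2 (CPM plus 0.5) from its mean over the 6 cortex libraries, one panel per list, with cortex HET 1 to 3 left of cortex WT 1 to 3, a point per gene and a bar at the median. Cortex HET 1 and 2 lie low in the subpallial, GABA and neuronal panels and high in the progenitor and cell cycle panels, while cortex HET 3 lies within or close to the range of the WT libraries.

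Transmitter genes followed the identity factors. All 6 genes of GABA synthesis and transport were higher in MGE HET, with a median log2 fold change of 4.26 in HET and 3.78 in WT. Gad1, an enzyme that makes GABA, was measured at 188, 175 and 166 CPM in MGE HET, against 2.28, 3.24 and 11.6 CPM in cortex HET (log2 fold change 4.93, SE 0.55, adjusted p = 0.00034). Gad2, the other enzyme of that step, was measured at 299, 206 and 283 CPM in MGE HET, against 2.83, 2.47 and 8.68 CPM in cortex HET (log2 fold change 5.80, SE 0.49, adjusted p = 7.57e-05). The vesicular GABA transporter Slc32a1 was measured at 121, 92.9 and 128 CPM in MGE HET, against 3.03, 1.57 and 5.39 CPM in cortex HET (log2 fold change 5.08, SE 0.39, adjusted p = 4.5e-05). Within the cortex all 3 were highest in cortex HET 3, with no overlap between tissues.

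Of 5 glutamate genes, 2 were lower in MGE HET and 3 did not pass. The 2 were vesicular glutamate transporters, and another of that family, Slc17a8, was among the 3 that did not pass. Slc17a7 was measured at 0.731, 0.599 and 0.636 CPM in MGE HET, against 56.4, 59.2 and 77.7 CPM in cortex HET (log2 fold change -6.61, SE 0.21, adjusted p = 3.22e-07). Slc17a6 was measured at 1.71, 0.400 and 0.0277 CPM in MGE HET, against 79.9, 73.6 and 86.9 CPM in cortex HET (log2 fold change -6.81, SE 0.68, adjusted p = 0.000191), with its highest MGE level in MGE HET 1. Slc17a6 no longer passed with cortex HET 3 as the sole cortex library (log2 fold change -6.92).

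Genes of interneurons were higher in MGE HET for 10 of 18 members and lower for 2, with a median log2 fold change of 1.37. Npy, a neuropeptide of interneurons, was measured at 28.4, 45.2 and 33.1 CPM in MGE HET, against 0.717, 0.488 and 3.67 CPM in cortex HET (log2 fold change 4.41, SE 0.63, adjusted p = 0.00127). Erbb4, the neuregulin receptor that guides migrating interneurons, was measured at 40.4, 31.9 and 42.4 CPM in MGE HET, against 2.74, 3.76 and 4.5 CPM in cortex HET (log2 fold change 3.38, SE 0.22, adjusted p = 1.75e-05). Both were apart in every library. Nos1, the neuronal nitric oxide synthase, went the other way and was measured at 1.55, 1.2 and 0.387 CPM in MGE HET, against 9.51, 9.31 and 16.9 CPM in cortex HET (log2 fold change -3.51, SE 0.47, adjusted p = 0.000877). Of 6 cholinergic genes 4 were higher and 1 was lower, and the higher count was 1 without MGE HET 1 or MGE HET 3 and 2 without cortex HET 1, without cortex HET 2 or without both. Slc18a3, the vesicular acetylcholine transporter, was measured at 2.75, 0.599 and 1.11 CPM in MGE HET, against 0, 0.105 and 0.143 CPM in cortex HET (log2 fold change 4.08, SE 0.86, adjusted p = 0.00917). It did not pass with cortex HET 3 as the sole cortex library (log2 fold change 3.34).

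Genes of the lateral eminence and striatum, the tissue next to the MGE, did not share a direction. Of 21 tested members 9 were higher, 5 lower and 7 not called, with a median log2 fold change of 0.16, and the lower count was 2 without MGE HET 3 or without cortex HET 2 and 3 without MGE HET 2. With cortex HET 3 as the sole cortex library 5 were higher and 2 lower. Meis1, a homeobox gene of the lateral eminence, was measured at 26.6, 25.8 and 27 CPM in MGE HET, against 1.76, 1.95 and 2.84 CPM in cortex HET (log2 fold change 3.59, SE 0.21, adjusted p = 9.98e-06). Ppp1r1b, the phosphatase inhibitor DARPP-32, known from striatal neurons, was measured at 0.225, 0.371 and 0.249 CPM in MGE HET, against 10.6, 11 and 30.1 CPM in cortex HET (log2 fold change -5.92, SE 0.53, adjusted p = 0.000109). Ppp1r1b was thus lower in every MGE HET library, cortex HET 3 had the highest level, and a gene on the opposite strand shares its exons.

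Effector genes of projection neurons were lower in MGE HET for 10 of 11 members and higher for none, with a median log2 fold change of -2.18. Sstr2, a somatostatin receptor of migrating projection neurons, was measured at 0.393, 0.628 and 0.609 CPM in MGE HET, against 77.7, 72 and 95.3 CPM in cortex HET (log2 fold change -7.22, SE 0.22, adjusted p = 3.22e-07). Cntn2, an axonal adhesion protein also called TAG-1, was measured at 25.6, 12.7 and 23.9 CPM in MGE HET, against 268, 263 and 553 CPM in cortex HET (log2 fold change -4.12, SE 0.39, adjusted p = 0.000129). Nrn1, a small neurite-promoting protein, was measured at 1.43, 0.257 and 0.277 CPM in MGE HET, against 69.9, 58.8 and 115 CPM in cortex HET (log2 fold change -6.94, SE 0.58, adjusted p = 6.99e-05). None overlapped, cortex HET 3 was the highest cortex library for all 3, and Nrn1 shares exons with a gene on the opposite strand.

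Genes of the cortical hem and of Cajal-Retzius cells were lower for 20 of 25 members and higher for none (median log2 fold change -3.85). The hem is the dorsal midline source of Wnt and BMP. Wnt3a, made there, had no count in MGE HET and was measured at 4.07, 6.1 and 3.7 CPM in cortex HET, so it was at least 162-fold lower in MGE HET against a floor of 3 counts over the group (adjusted p = 0.00011). Wnt8b was measured at 0, 0.428 and 0.0553 CPM in MGE HET, against 41.2, 40.1 and 19 CPM in cortex HET (log2 fold change -7.68, SE 0.70, adjusted p = 0.000112). Rspo3, a secreted amplifier of Wnt signals, was measured at 0.112, 0.0571 and 0.387 CPM in MGE HET, against 32.8, 36.6 and 35.4 CPM in cortex HET (log2 fold change -7.52, SE 0.41, adjusted p = 7.2e-06). All 3 were at or near zero in the MGE.

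Hedgehog genes differed by role. Of 12 hedgehog pathway genes, 5 were higher in MGE HET, 4 lower and 3 not called, with a median log2 fold change of 0.28. The ligand Shh was measured at 38.8, 30.1 and 35.7 CPM in MGE HET, against 0, 0.0349 and 0.115 CPM in cortex HET (log2 fold change 9.27, SE 0.41, adjusted p = 2.82e-06). Hhip, a target gene and antagonist that binds the ligand, was measured at 20.9, 11.3 and 16.6 CPM in MGE HET, against 0, 0 and 0.143 CPM in cortex HET (log2 fold change 8.17, SE 0.62, adjusted p = 4.5e-05). Both were at trace level or zero in cortex HET. The co-receptors were lower. Gas1 was measured at 6.46, 7.11 and 6.58 CPM in MGE HET, against 516, 416 and 215 CPM in cortex HET (log2 fold change -5.83, SE 0.34, adjusted p = 9.63e-06). Cdon was measured at 23.2, 16.8 and 20.4 CPM in MGE HET, against 542, 475 and 309 CPM in cortex HET (log2 fold change -4.46, SE 0.25, adjusted p = 7.66e-06). In the cortex both co-receptors were lowest in cortex HET 3. Shh shares exons with another gene on the opposite strand.

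Of 22 tested Wnt pathway genes, 15 were lower in MGE HET, 4 were higher and 3 were not called (median log2 fold change -1.89 in HET and -1.05 in WT). Lef1, the nuclear effector and target of Wnt signals, was measured at 2.95, 1.97 and 3.15 CPM in MGE HET, against 55.1, 46.6 and 22.8 CPM in cortex HET (log2 fold change -3.94, SE 0.35, adjusted p = 0.000105). Sp5, a direct Wnt target, was measured at 0.337, 0.656 and 0.526 CPM in MGE HET, against 8.67, 9.03 and 5.24 CPM in cortex HET (log2 fold change -3.91, SE 0.35, adjusted p = 9.98e-05). The receptor Fzd9 was measured at 4.47, 4.22 and 2.88 CPM in MGE HET, against 82.3, 73.3 and 43.8 CPM in cortex HET (log2 fold change -4.11, SE 0.28, adjusted p = 2.58e-05). Each was lower in every MGE HET library. The receptor Fzd5 went the other way and was measured at 12.1, 10.04 and 10.4 CPM in MGE HET, against 0.652, 0.662 and 0.430 CPM in cortex HET (log2 fold change 4.22, SE 0.25, adjusted p = 1.12e-05). The absolute change was larger in HET than in WT for 18 of the 22, against 48.5% of all tested genes. The difference between genotypes called none of the 22 with edgeR. It had an unadjusted p under 0.05 for 3 of them, against 4.07% of all tested genes. The HET median of the list was -1.94 without cortex HET 3 and -1.46 with it as the sole cortex library.

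**Figure D4:**
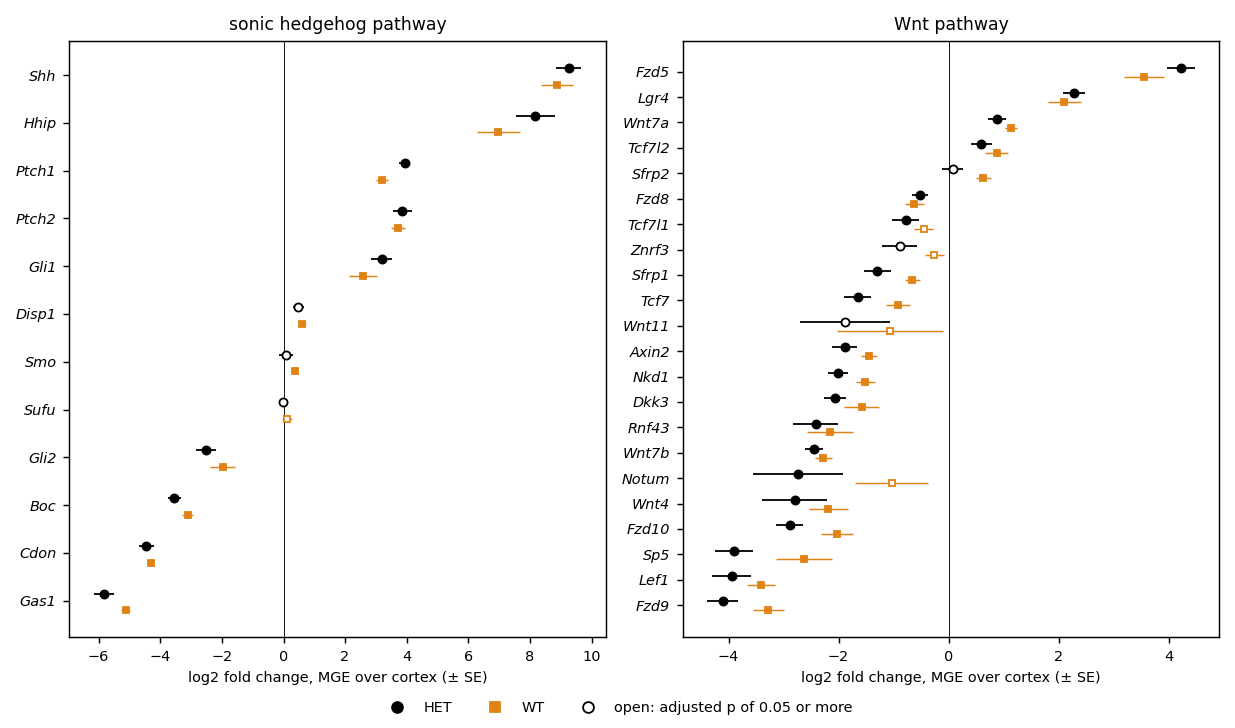
Log2 fold change of MGE over cortex with its SE for hedgehog genes and Wnt genes, HET as black circles and WT as orange squares, open symbols where the adjusted p was 0.05 or more. The ligand Shh and target Hhip are above zero and the co-receptors Gas1 and Cdon below, and most Wnt genes lie below zero in both genotypes.

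Genes of radial glia, the cell cycle and neurons at large, which both tissues use, had median log2 fold changes of 0.09, 0.33 and 0.31 in that order, against -0.01 over all tested genes. Of 18 radial glia genes 4 were higher in MGE HET, 7 lower and 7 not called (median log2 fold change 0.09, and -0.01 without cortex HET 3). Hopx, a radial glia gene, was measured at 0.731, 0.599 and 0.194 CPM in MGE HET, against 23.7, 19.3 and 16.9 CPM in cortex HET (log2 fold change -5.29, SE 0.39, adjusted p = 3.35e-05). Ptprz1, a receptor phosphatase, was measured at 472, 475 and 464 CPM in MGE HET, against 138, 142 and 232 CPM in cortex HET (log2 fold change 1.46, SE 0.20, adjusted p = 0.00114). Hopx was nearly absent from the MGE, while Ptprz1 was higher there in every library.

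Of 30 cell cycle genes 2 were higher and 1 lower in HET, with 27 not called (median log2 fold change 0.33), whereas in WT 28 were higher and 1 lower (median 0.68). The higher count was 6 without cortex HET 3, 19 with cortex HET 3 as the sole cortex library, and 1 without MGE HET 2 or without MGE HET 3. The difference between genotypes called none of the 30 with edgeR. It had an unadjusted p under 0.05 for 5 of them, against 4.07% of all tested genes. Without cortex HET 3, a choice that favours such calls, it called 9, all below zero, against 439 of 14636 tested autosomal genes. The cyclin Ccnd1 was measured at 297, 351 and 335 CPM in MGE HET, against 119, 115 and 61.5 CPM in cortex HET (log2 fold change 1.74, SE 0.24, adjusted p = 0.00104). Its relative Ccnd2 was measured at 560.4, 571 and 613 CPM in MGE HET, against 1637, 1584 and 946 CPM in cortex HET (log2 fold change -1.26, SE 0.20, adjusted p = 0.0026). These cyclins of the same step were thus called in opposite directions. Ccnd2 shares exons with a gene on the opposite strand.

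Of 18 pan-neuronal genes 6 were higher and 1 lower (median log2 fold change 0.31). The higher count was 2 without MGE HET 1, without MGE HET 3 or without cortex HET 2, and 3 without cortex HET 1. It was 8 without cortex HET 3 (median 0.74), and with cortex HET 3 as the sole cortex library 1 was higher and 2 lower (median -0.05), so the sign of the median turned. Stmn4, a regulator of microtubules in neurons, was measured at 116, 84.5 and 97 CPM in MGE HET, against 26.4, 28.9 and 61.7 CPM in cortex HET (log2 fold change 1.35, SE 0.31, adjusted p = 0.0136). Rbfox3, the NeuN antigen of maturing neurons, was measured at 14.1, 4.28 and 8.02 CPM in MGE HET, against 51, 46.7 and 55.3 CPM in cortex HET (log2 fold change -2.54, SE 0.36, adjusted p = 0.00128). Neither overlapped, Rbfox3 was lowest in MGE HET 2, and it did not pass with cortex HET 3 as the sole cortex library (log2 fold change -2.65).

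Markers of cells that are not neural differed as well. All 11 meninges genes were lower in MGE HET (median log2 fold change -4.86), with a summed level of 18 to 42.9 CPM in MGE HET, against 584 to 837 CPM in cortex HET and 427 to 721 CPM in cortex WT. Dcn, the matrix protein decorin of meningeal fibroblasts, was measured at 0.169, 0.457 and 0.692 CPM in MGE HET, against 33.7, 46.9 and 62.6 CPM in cortex HET (log2 fold change -6.75, SE 0.42, adjusted p = 1.38e-05). Of 8 choroid plexus genes 7 were lower, 4 without MGE HET 2 and 3 without cortex HET 3, and limma-voom called 1. Their summed level was 1.41, 3.11 and 5.42 CPM in MGE HET, against 11.4, 267 and 459.5 CPM in cortex HET and 1647, 4.97 and 1272 CPM in cortex WT. Cortex HET 1 and cortex WT 2 thus held little choroid plexus RNA, and no choroid plexus or meninges gene was at zero in all 3 MGE HET libraries. Folr1, Kcne2, Slc4a5, Lum and Aldh1a2 were at zero in at least 1 of them. The part of these cells in the hem and Wnt results was not tested.

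Endothelial, microglial and blood markers gave calls that moved with single libraries. Of 12 endothelial and pericyte genes 2 were higher and 3 lower, with summed levels of 248 to 261 CPM in MGE HET, against 276 to 341 CPM in cortex HET. There was 1 lower call left without MGE HET 1, MGE HET 3 or cortex HET 2, 5 lower and 3 higher calls without cortex HET 3, and 1 higher call left without MGE HET 1, cortex HET 1 or cortex HET 2. Of 10 microglia genes 1 was lower, Fcer1g, and the median log2 fold change of the list was -0.48. The lower count was 2 without cortex HET 1, and 6 with cortex HET 3 as the sole cortex library (median -0.99). Their sum was 50.7 to 53.7 CPM in MGE HET, against 52.4 to 91.7 CPM in cortex HET, where cortex HET 3 was highest. Of 4 tested autosomal red blood cell genes none was called with edgeR, which gave 1 an unadjusted p under 0.05, none with limma-voom and 1 with DESeq2. Without cortex HET 3, 3 of them were lower, and without cortex HET 1, 1 was. Their summed level with the X-linked members was 465, 641 and 679.6 CPM in MGE HET, against 946, 1184 and 387 CPM in cortex HET.

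Markers of other brain regions were low except for the Zic genes. None of 11 hindbrain and midbrain genes passed the filter, with summed levels of 0.138 to 0.257 CPM in MGE HET, against 0.0326 to 0.258 CPM in cortex HET. Of 16 diencephalon and hypothalamus genes 3 were tested, and their sum over all 16 was 3.99 to 5.05 CPM in MGE HET, against 10.5 to 14.4 CPM in cortex HET. Of the 3 tested, Foxd1 was lower in MGE HET (log2 fold change -2.17, SE 0.26, adjusted p = 0.000556), 1, Irx1, was higher, and 1 was not called. Irx1 no longer passed without MGE HET 3 (log2 fold change 2.33), without cortex HET 1 (2.16) or without cortex HET 2 (2.20). Of 4 septum and midline genes 1 was higher and 2 lower. Zic1, a zinc finger gene of the septum, was measured at 310.2, 181 and 215 CPM in MGE HET, against 122, 112 and 88.1 CPM in cortex HET (log2 fold change 1.13, SE 0.21, adjusted p = 0.00529), with its highest level in MGE HET 1, and it shares exons with Zic4 on the opposite strand. Among 11 genes of every cell, 3 were lower with a median log2 fold change of -0.11 over the list, and none was called without MGE HET 1, without MGE HET 3 or without cortex HET 2.

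Most genes with extreme changes belonged to the gene lists, which were chosen with earlier results of these data known, so this overlap is no independent result. Of the 12 higher and 12 lower genes with the largest changes among well-expressed genes, those outside the lists were AI606473, Slc10a4, Nhlh1 and Dct. Slc10a4, a transporter-like protein of cholinergic and monoaminergic vesicles, was measured at 59.7, 35.2 and 44.2 CPM in MGE HET, against 0, 0.0697 and 0.315 CPM in cortex HET (log2 fold change 8.37, SE 0.54, adjusted p = 1.75e-05). AI606473, for which no role is given here, was measured at 90.7, 62.2 and 81.4 CPM in MGE HET, against 0, 0 and 0.115 CPM in cortex HET (log2 fold change 10.73, SE 0.45, adjusted p = 2.52e-06). Nhlh1, a bHLH gene of newborn neurons, was measured at 0.141, 0.257 and 0.194 CPM in MGE HET, against 97, 109 and 80.2 CPM in cortex HET (log2 fold change -8.89, SE 0.24, adjusted p = 1.92e-07). Dct, an enzyme of melanin synthesis that embryonic cortical progenitors express, was measured at 0.169, 0.114 and 0.0553 CPM in MGE HET, against 62.1, 30.6 and 51.3 CPM in cortex HET (log2 fold change -8.69, SE 0.42, adjusted p = 3.72e-06). All 4 were apart in every HET library and were called in the same direction in WT, with log2 fold changes of 6.76, 9.83, -7.82 and -7.81.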

How the data were processed

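Poly(A)-selected libraries of dissected E13.5 MGE and cortex were analysed from the count table that the authors deposited, whose values are raw read counts per gene symbol, not normalised. Per the submitters' processing notes, FastQC, Trimmomatic, TopHat2 2.1.1, SAMtools and DESeq2 were used with build mm10. Their roles are not stated. The sources used here name no read counter, gene annotation or strandedness. The table had 24062 lines, and 27 symbols read as dates, which hold 0.247 to 0.270% of counts in the HET libraries. Genes were placed on chromosomes with GENCODE M21 (22724 lines) or RefSeq symbols and synonyms, and 22813 lines were autosomal.

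Genes were kept with edgeR's filterByExpr (minimum count 10, minimum total 15) over the 12 E13.5 libraries and scaled by TMM. The main test was edgeR 4.0.16's robust quasi-likelihood F test (R 4.3.3), fitted to the 6 libraries of a genotype, with Benjamini-Hochberg adjustment over all 15247 tested genes. The difference between genotypes was fitted on 12 libraries. Positive log2 fold changes mean higher in MGE. SE is the absolute log2 fold change divided by the square root of F, and an adjusted p under 0.05 was called. With 3 against 3 libraries an exact permutation test cannot go below p = 0.1. Where all libraries of a group had no count, a fold was taken against a floor of 3 counts, and intervals cover counting error only. Fitting was tested on simulated data.

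Alternatives were limma 3.58.1 voom, DESeq2 1.42.0, other scalings and filters, a replicate block, a Y-linked covariate, wider fits and leaving out libraries. Genes were named as follows: Nkx2-1, Emx1 and Chd2; every member of the 4 transcription factor lists; the 12 higher and 12 lower genes with the largest called change, no overlap and mean log2 CPM of at least 1; up to 4 members of each other list with the largest called change, or 2 by p; the 5 identity members with the smallest gap between groups; and the lowest p-values of the genotype difference. Genes that a tally lists beyond these were chosen after their values were seen. A few list members are counted in the totals but not reported individually here. Members and lists were chosen with earlier results of these data known. The postnatal hippocampus libraries were used in one alternative fit.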

Additional observations from a re-analysis of the deposited data

Results flagged for a closer look

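Among the named genes, Dgki, a diacylglycerol kinase, drew attention because the tissues differed one way in HET and the other way in WT, with no overlap of libraries in either genotype. It was measured at 17.2, 14.4 and 11.9 CPM in MGE HET, against 8.9, 8.26 and 11.4 CPM in cortex HET, and at 13.2, 13 and 11.7 CPM in MGE WT, against 16.8, 13.7 and 18 CPM in cortex WT. The HET difference did not pass the threshold (log2 fold change 0.61, SE 0.20, adjusted p = 0.0562). The difference of log2 fold changes between HET and WT was 0.96 (SE 0.24, unadjusted p = 0.00166), with an edgeR adjusted p of 0.916, so it did not pass over all genes. Dgki was named for its low p in that same difference, a choice that favours opposite directions. The share of all tested genes with such a pattern is not given here.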

How the results depend on the processing

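Leaving out each HET library in turn gave 829 to 2052 higher and 1276 to 2425 lower calls between MGE HET and cortex HET, and leaving out each WT library gave 5769 to 6572 calls in WT. One fit of all 18 libraries gave 2930 higher and 3405 lower HET calls, and one fit of the 12 E13.5 libraries gave 2483 higher, with more residual degrees of freedom by construction. Upper-quartile scaling moved the share of higher calls to 38.9%, against 42.4%, and no shared call changed sign under any alternative run. The difference between genotypes called 0 to 439 genes when single libraries were left out and 6 with DESeq2. Replicate numbers did not pair the HET libraries: same-numbered deviations correlated at -0.096, 0.0055 and -0.086, against -0.043 to 0.110 for different numbers. In WT same-numbered deviations correlated at 0.025, 0.079 and 0.111, each above the range of -0.097 to 0.020 for different numbers. Yet MGE WT 1 was high in Xist and cortex WT 1 had Y-linked reads, so these libraries cannot come from the same embryo. MGE HET 2 and cortex HET 2 differed in sex markers as well. The other same-numbered libraries matched in sex markers. With the replicate block, 3158 HET genes were called (1347 higher, 1811 lower), and the genotype difference called 0 genes with edgeR, with 532 at an unadjusted p under 0.05. A covariate for the Y-linked level left 2758 HET genes called (1116 higher, 1642 lower). Of 2680 comparisons of the tissue change in HET for 149 named genes with their alternatives, 2563 kept direction and call, 108 lost the call, 9 gained it and 0 reversed. For the 10 genes named for the genotype difference, none of which passed, 202 of 220 comparisons stayed uncalled and 18 gained a call, 9 without cortex HET 3, 6 with DESeq2 and 3 without MGE WT 1. Among the 60 transcription factors, 5 changed a call under at least 1 alternative (Tbr1, Gbx1, Sox5, Tle4 and Nr2e1), and the cause was not tested. With the replicate block Tbr1 no longer passed (log2 fold change -7.23). Of 900 alternative counts for the other lists, 825 stayed within 1.5 times and 75 moved further. A group without counts limits the folds of Isl1, Gsx2 and Wnt3a to bounds, and 1 count in a group leaves the ratios of Gsx1 and Neurog1 with wide counting intervals.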

Other observations

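Other signalling genes also differed by member. Of 13 tested FGF pathway genes, 2 were higher in MGE HET and 7 lower, and 4 were lower without MGE HET 1 or with cortex HET 3 as the sole cortex library. Fgf15, a ventral and midline FGF, was measured at 22.4, 14.4 and 12.1 CPM in MGE HET, against 0.424, 0.349 and 1.06 CPM in cortex HET (log2 fold change 4.70, SE 0.43, adjusted p = 0.000119). Etv5, a target of FGF signals, was measured at 8.09, 9.25 and 7.47 CPM in MGE HET, against 35.9, 25.6 and 28.6 CPM in cortex HET (log2 fold change -1.86, SE 0.17, adjusted p = 0.000129). Of 7 tested retinoid genes, 2 were higher and 2 lower, with 1 higher without MGE HET 2 or without MGE HET 3. Cyp26b1, which degrades retinoic acid, was measured at 0.590, 0.285 and 0.221 CPM in MGE HET, against 2.25, 1.57 and 3.32 CPM in cortex HET (log2 fold change -2.69, SE 0.47, adjusted p = 0.00358).

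Among 26 genes of migration and axon guidance 7 were higher and 9 lower. Ntn1, the guidance cue netrin-1, was measured at 271, 189 and 219.9 CPM in MGE HET, against 3.65, 3.73 and 4.5 CPM in cortex HET (log2 fold change 5.83, SE 0.19, adjusted p = 4.14e-07). Cxcl12, the chemokine that keeps migrating interneurons in their streams and is made by meninges and cortical progenitors, was measured at 2.78, 4.0 and 3.76 CPM in MGE HET, against 67.9, 75.7 and 91.9 CPM in cortex HET (log2 fold change -4.48, SE 0.20, adjusted p = 2.82e-06). Both stood apart in every library.

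Of 5 tested genes of oligodendrocyte precursors 4 were higher and 1 lower. Sox10, the lineage's transcription factor, was measured at 1.49, 1.4 and 1.41 CPM in MGE HET, against 0, 0 and 0.0573 CPM in cortex HET, a ratio of 67.5 (95% counting interval 18.4 to 563) on few cortical counts (adjusted p = 0.00054). Gpr17, a receptor of committed precursors, was measured at 7.19, 5.68 and 6.25 CPM in MGE HET, against 0.0326, 0.139 and 0.143 CPM in cortex HET (log2 fold change 5.86, SE 0.40, adjusted p = 2.42e-05), and it shares exons with another gene. For the difference between genotypes, the lowest p above zero was that of Lpl, lipoprotein lipase, at 0.96 (SE 0.17, unadjusted p = 9.86e-05, adjusted p = 0.558), and Aldoc, an aldolase of radial glia and astrocytes, had -1.11 (SE 0.21, unadjusted p = 0.000146, adjusted p = 0.558).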
